A study of Rattus norvegicus with 12 samples.

Results

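The genes described here are 40 genes of the cell cycle and of DNA replication, chosen by name and read in liver and renal cortex of rats given TCE or corn oil. TCE is trichloroethylene, a chlorinated solvent. A gene was measured where the rat array carried a probe set annotated with that gene symbol and no other, and the probe set with the highest mean over the 12 arrays stood for it. That gave 37 of the 40 genes, out of 14217 genes measured in all. There are 11 replication genes, 22 mitosis genes and 4 regulators among the 37, and Rrm2, Cdc6 and Kif4a had no such probe set. The 4 groups compared, of 3 arrays each, were liver of TCE rats, liver of control rats, kidney (renal cortex) of TCE rats and kidney of control rats. All rats were males of 7 to 9 weeks, 190 to 240 g, called Wistar-derived in the labels, with the strain given as F-344 (Wistar-derived). TCE was given orally at 16 mg/kg per day for 3 days in corn oil at 5 ml/kg, controls had the corn oil alone, and all were killed 24 h after the last dose. Sample titles mark the treated rats with the word case, which was taken to mean TCE. The labels give 3 treated and 3 control rats, so both tissues came from 6 rats, but no label ties a liver array to the kidney array of the same rat.

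A cell that divides first copies its DNA and then separates the copies. The replication genes make the proteins of copying: the Mcm proteins form the helicase that opens the double helix, Pcna is the ring that holds the polymerase on DNA, and Rrm1, Tyms and Tk1 supply deoxynucleotides. The mitosis genes make the kinases, cyclins, motors and checkpoint proteins that build the spindle and divide the cell, and Mki67 encodes the Ki-67 protein that pathologists stain to count dividing cells. Ccnd1, Ccne1, E2f1 and Foxm1 act earlier, at the entry into the cycle or on the transcription of the other genes. Most hepatocytes and tubule cells of an adult rat are not dividing. Many of these genes are dim in both tissues, but Ccnd1, Pcna, Mcm7 and Rrm1 are bright in both. Which cells the transcripts come from was not tested. In a piece of tissue, fewer dividing cells and less RNA per dividing cell cannot be told apart.

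In the promoters searched, replication and mitosis genes differed most in E2F matches, while the other motifs occurred in both. The 9 windows printed here belong to genes whose values are given below, and each holds matches to the motifs searched. In human and mouse cells, mitosis genes carry a cell cycle genes homology region (CHR, searched as TTTGAA or TTCGAA) and CCAAT boxes (CCAAT), and replication genes carry E2F sites (searched as TTTCCCGC, TTTGGCGC, TTTCGCGC or TTTGCCGC). Each was searched on both strands in the 250 bases before the start of the gene, in RefSeq sequences of the GRCr8 assembly, where 30 of the 40 genes had an entry. Capitals mark these motifs, and every window is written 5′ to 3′ on the strand of its gene.
Mki67: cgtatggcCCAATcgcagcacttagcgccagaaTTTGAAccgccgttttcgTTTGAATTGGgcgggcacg
Cdk1: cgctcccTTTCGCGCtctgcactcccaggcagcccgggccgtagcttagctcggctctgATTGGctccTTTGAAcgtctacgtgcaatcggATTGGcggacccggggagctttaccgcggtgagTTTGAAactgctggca
Ccnb2: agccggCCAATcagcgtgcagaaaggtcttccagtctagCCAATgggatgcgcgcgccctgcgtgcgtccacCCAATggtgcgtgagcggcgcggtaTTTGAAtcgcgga
Hmmr: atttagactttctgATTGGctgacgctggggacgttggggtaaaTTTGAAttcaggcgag
Top2a: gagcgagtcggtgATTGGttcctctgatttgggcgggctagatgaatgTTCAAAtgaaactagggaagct
Prc1: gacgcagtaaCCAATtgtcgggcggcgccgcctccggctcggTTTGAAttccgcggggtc
Mcm2: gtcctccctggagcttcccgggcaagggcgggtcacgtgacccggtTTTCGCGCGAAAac
Mcm6: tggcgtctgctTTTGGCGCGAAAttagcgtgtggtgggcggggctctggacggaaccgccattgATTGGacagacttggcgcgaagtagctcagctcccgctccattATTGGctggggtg
Mcm5: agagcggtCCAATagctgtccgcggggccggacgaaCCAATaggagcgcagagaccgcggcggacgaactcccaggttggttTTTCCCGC
The windows lie at chr1:199952674-199952743 (minus strand) for Mki67, chr20:19265153-19265292 (plus) for Cdk1, chr8:79981689-79981798 (minus) for Ccnb2, chr10:25665246-25665305 (minus) for Hmmr and chr10:84473094-84473163 (minus) for Top2a. For Prc1 the window is chr1:143659421-143659480 (plus), for Mcm2 chr4:122918095-122918154 (minus), for Mcm6 chr13:42404383-42404502 (minus) and for Mcm5 chr19:13488723-13488812 (plus). In Mki67 the second CHR and a reversed CCAAT box share a base, and in Mcm2 and Mcm6 the long run of capitals is a pair of E2F matches, one on each strand, that overlap. A CHR stood in 9 of 19 mitosis promoters (47.4%), 3 of 10 replication promoters (30.0%) and 17.4% of all 33469 promoters. A CCAAT box stood in 16 of the 19 mitosis promoters (84.2%) and 7 of the 10 replication promoters (70%), against 34.0% of all. A CHR and a CCAAT box together were found in 8 mitosis promoters (42.1%) and in 6.31% of all. An E2F match stood in 6 of the 10 replication promoters (60%) and in 1.73% of all, and Cdk1 was the 1 mitosis gene with one. Other genes described below are not printed: Aurka and Tk1 had none of these motifs, Kif11 no CHR and Pcna no E2F match. These counts describe the letters of the windows and are no evidence of binding.

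Values are log2 expression units as deposited, in which 1 unit is a doubling, and the lowest value of the whole table is 2.17. A value within 0.5 units of it is called near the lowest here. Array medians were 3.51 to 3.54 in liver and 3.88 to 3.96 in kidney. Liver arrays held hepatocyte markers at a summed signal (2 to the power of each log2 value, added over 7 genes) of 264800 to 267400 in TCE rats and 266800 to 269800 in control rats, against 2989 to 12180 in kidney. Renal tubule markers summed to 140000 to 147700 in kidney of TCE rats and 132800 to 139800 in kidney of control rats, with liver at or under 244.1, so the markers fit the tissue labels. Each group has 3 arrays, which limits the precision of every value below, and a mean is given with its SD over 3 arrays and a difference with limma's SE. Of the 37 genes, Mcm3, Bub1b, Plk1 and Ttk were near the lowest value on all 12 arrays and give no information on either treatment or tissue. Besides these 4, Cdc20, Hmmr, Kif11, Kif20a, Prc1 and Racgap1 were near the lowest on all liver arrays, and Gins1, Ccne1 and Foxm1 on all kidney arrays. A single value repeated on 6 or more arrays in 10 genes, among them Ccnb1, Tyms, Hmmr and E2f1, so a difference there rests on the few arrays that depart from it.

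In liver, most cell cycle genes had somewhat higher values in TCE rats than in control rats, but no gene passed the test. Of the 27 genes bright enough to be tested, 24 had a higher mean in TCE liver and 3 a lower one. The median difference was 0.29 over the 27 genes and 0.15 over all 37 measured, against 0.03 over all 10546 genes tested. All 14 tested mitosis genes had higher means in TCE liver (median 0.38), as had 8 of the 9 tested replication genes (median 0.29). Without TCE array 1 the median was 0.19 over all tested genes and 0.23 over the mitosis genes. A dim gene can be tested only through the group in which it is brighter, so these counts describe the tested genes and are no support for a change of the list. limma with Benjamini-Hochberg adjustment over all genes called 0 of the 27, and 0% of all genes. At an unadjusted p under 0.05, 4 genes were higher (14.8% of the 27, against 8.82% of all genes tested) and 0 lower. The TCE and control arrays did not overlap in 5 genes, all higher in TCE liver (18.5%, against 12.2% of all genes tested), and in 0 lower (against 8.32%).

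Mki67 gave 4.76, 4.65 and 3.97 in TCE liver, against 3.40, 3.57 and 3.35 in control liver. All TCE arrays lay above all control arrays, with the third TCE array closest to them. The difference was 1.02 ± 0.23, a 2.03-fold change (adjusted p = 0.19). Cdk1, the kinase that starts mitosis, gave 4.53, 4.57 and 3.44 in TCE liver, against 3.65, 2.36 and 2.32 in control liver, where the last 2 are near the lowest value. Its cyclin partner Ccnb2 gave 6.02, 6.38 and 5.05 in TCE liver, against 4.33, 5.05 and 4.39 in control liver. Ccna2, the cyclin of S phase and G2, gave 3.93, 4.0 and 3.43 in TCE liver, against 2.71, 3.43 and 3.17 in control liver. In each of these 3 genes TCE arrays 1 and 2 were above every control array while TCE array 3 overlapped the controls or tied with one. Their differences were 1.41 ± 0.50 for Cdk1, 1.22 ± 0.40 for Ccnb2 and 0.68 ± 0.24 for Ccna2, with adjusted p of 0.306, 0.279 and 0.309.

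In other mitosis genes the difference lay mostly on single arrays. Top2a, the topoisomerase that untangles chromosomes, gave 3.63, 2.85 and 2.37 in TCE liver, against 2.49, 2.49 and 2.33 in control liver. TCE array 1 carried most of that difference of 0.52 ± 0.32 (adjusted p = 0.503), and a second Top2a probe set differed by -0.001. Aurka, a kinase of the spindle poles, gave 3.86, 4.77 and 3.99 in TCE liver, against 3.81, 3.85 and 3.83 in control liver. The groups do not overlap, but TCE array 1 exceeded the highest control array only slightly and array 2 stood well above the rest (difference 0.38 ± 0.25, adjusted p = 0.525). Bub1, a spindle checkpoint kinase, gave 2.99, 2.42 and 2.42 in TCE liver, against 2.40, 2.33 and 2.25 in control liver. All but the first TCE array are near the lowest value, so that separation (difference 0.28 ± 0.18, adjusted p = 0.507) is one of dim values. Ccnb1 gave 3.76, 3.97 and 3.64 in TCE liver, against 3.64 on each control array, which is also the value of most kidney arrays.

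The rest of the mitosis genes were dim or overlapped between the groups. In TCE liver against control liver, the anaphase ligase enzyme Ube2c averaged 2.68 ± 0.38 and 2.30 ± 0.06, and Nusap1, which bundles spindle microtubules, 3.37 ± 0.53 and 2.92 ± 0.18. Aurkb and Birc5, both of the chromosomal passenger complex, averaged 2.99 ± 0.08 and 2.88 ± 0.37 in TCE liver, against 2.75 ± 0.31 and 2.75 ± 0.10 in control liver. Cdc20 and Cdca3 were near the lowest value on nearly all liver arrays, with TCE means of 2.58 ± 0.044 and 2.57 ± 0.21.

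**Figure D1:**
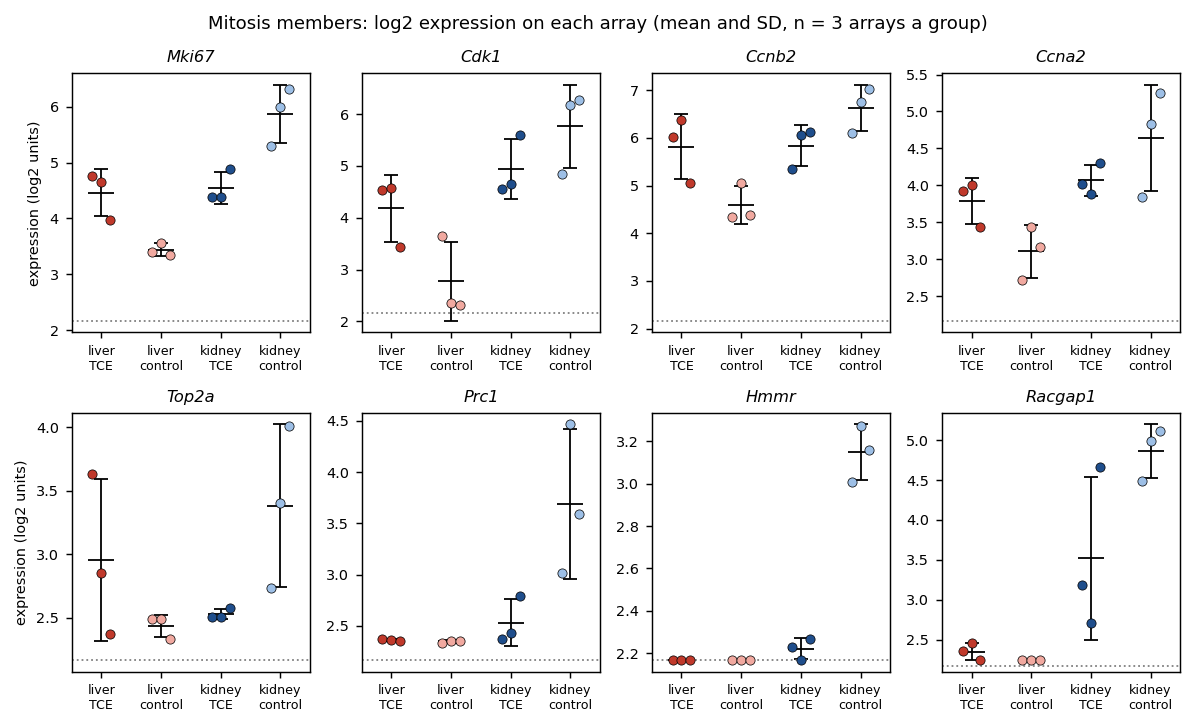
Log2 expression (vertical axis) of 8 mitosis genes on each array, as points, with the mean and SD of 3 arrays as bars, for TCE liver, control liver, TCE kidney and control kidney from left to right; the dotted line is the lowest value of the table, 2.17. For Mki67 the TCE liver points lie above the control liver points, and the TCE kidney points below the control kidney points.

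Among the replication genes of liver, Mcm2 and Mcm4, subunits of the replicative helicase, had the clearest separation. Mcm2 gave 5.80, 5.99 and 5.84 in TCE liver, against 5.13, 5.35 and 5.79 in control liver. Mcm4 gave 7.23, 7.09 and 7.36 in TCE liver, against 6.28, 6.97 and 6.92 in control liver. In both genes no TCE array overlapped a control array, and for Mcm2 the gap between the groups was under 0.1 units. The differences were 0.45 ± 0.18 for Mcm2 and 0.50 ± 0.21 for Mcm4 (adjusted p = 0.343 and 0.352). Mcm6 gave 3.93, 4.83 and 4.73 in TCE liver, against 2.52, 4.19 and 4.31 in control liver. Control array 1 was near the lowest value and the other 2 control arrays lay inside the TCE range, so the difference of 0.82 ± 0.55 has a wide error.

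The remaining helicase genes did not separate the liver groups. Mcm5 gave 5.08, 5.15 and 4.87 in TCE liver, against 4.87, 5.12 and 4.92 in control liver. Mcm7 gave 8.78, 8.80 and 8.65 in TCE liver, against 8.27, 8.81 and 8.55 in control liver. Both sets of arrays overlap. Pcna, the polymerase clamp, was the 1 tested replication gene with a lower mean in TCE liver: 9.22, 9.41 and 9.48 there, against 9.64, 9.47 and 9.44 in control liver. The difference was -0.15 ± 0.1 (adjusted p = 0.532) and the arrays overlap. Rrm1, the large subunit of ribonucleotide reductase, gave 7.84, 7.83 and 7.51 in TCE liver, against 7.55, 7.48 and 7.27 in control liver, a difference of 0.29 ± 0.13 (adjusted p = 0.375). Tk1, thymidine kinase, averaged 6.81 ± 0.35 in TCE liver and 6.80 ± 0.23 in control liver, and Tyms, thymidylate synthase, 4.34 ± 0.022 in TCE liver and 3.89 ± 0.50 in control liver.

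Of the regulators, Ccnd1 (cyclin D1, which opens the G1 phase) gave 10.96, 10.10 and 9.78 in TCE liver, against 8.16, 9.38 and 9.92 in control liver. The highest control array exceeded the lowest TCE array, and control array 1 stood far below the others. The difference was 1.12 ± 0.54 (adjusted p = 0.403), and the 2 other Ccnd1 probe sets gave 1.22 and 1.29. Ccne1, E2f1 and Foxm1 averaged 2.60 ± 0.30, 3.23 ± 0.08 and 2.56 ± 0.063 in TCE liver, against 2.60 ± 0.46, 3.28 ± 0 and 2.50 ± 0.20 in control liver, all dim.

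**Figure D2:**
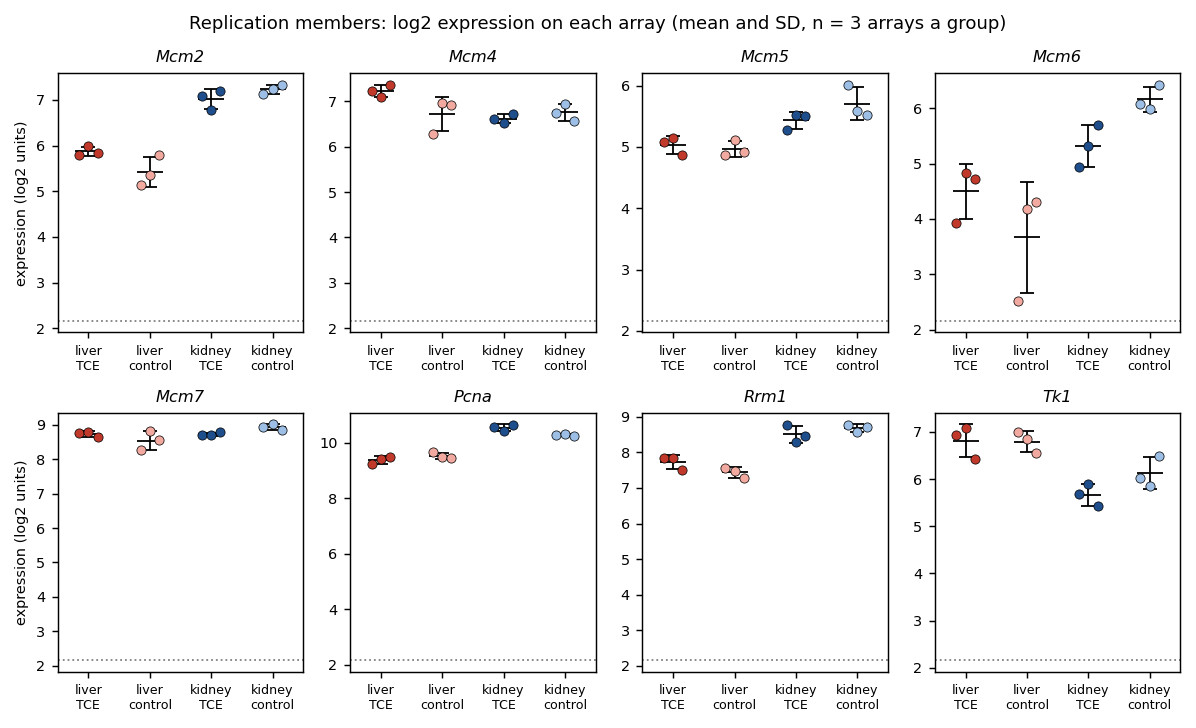
Log2 expression (vertical axis) of 8 replication genes on each array, as points, with the mean and SD of 3 arrays as bars, for TCE liver, control liver, TCE kidney and control kidney from left to right; the dotted line is the lowest value of the table, 2.17. Pcna is higher in TCE kidney than in control kidney, while Mcm5, Mcm6 and Mcm7 are lower there.

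A measure of RNA quality differed between the same liver groups. The log2 gap between the 3′ and 5′ Gapdh probe sets was 1.49 ± 0.25 in TCE liver and 0.81 ± 0.040 in control liver (SD over 3 arrays; the two-sided exact permutation test gave p = 0.1, and a lower one is not possible with 3 arrays a side). With that gap as a covariate the median difference of the 27 liver genes was -0.048, at a median SE of 0.44 against 0.20 without it. Summed markers of several other cell types differed between the liver groups. Erythroid markers (5 of 6 measured, Epb42 and Ahsp near the lowest) summed to 10960 to 16480 in TCE liver and 20010 to 25670 in control liver, and all 3 tested were lower in TCE liver without overlap. Neutrophil markers (3 of 5 measured, Camp near the lowest) summed to 266 to 332.3 in TCE liver and 105.9 to 174.3 in control liver. Stellate, fibroblast and smooth muscle markers (9 of 9) summed to 6122 to 7710 in TCE liver and 5452 to 5671 in control liver. Markers of B and plasma cells (4 of 6 measured, all but 1 near the lowest) summed to 107.2 to 176.2 in TCE liver and 77.86 to 95.15 in control liver. Markers of 2 further cell types overlapped. T and NK cell markers (6 of 6 measured, Cd3d, Cd2 and Cd5 near the lowest) summed to 45.06 to 65.4 in TCE liver and 43.62 to 46.1 in control liver, and macrophage markers to 4900 to 9641 in TCE liver and 6316 to 7499 in control liver. The part of these cells in the liver values was not tested.

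In kidney most of these genes had lower values in TCE rats than in control rats, and again no gene passed the test. Of 30 genes tested, 27 had a lower mean in TCE kidney and 3 a higher one, namely Pcna, Kif11 and Cdca3. The median difference was -0.28 over the 30 genes and -0.21 over all 37 measured, against 0 over all 10559 genes tested. Among mitosis genes 17 of 19 were lower, with a median of -0.57, and among replication genes 8 of 9, with a median of -0.21. Without control array 1 the mitosis median was -0.96 and without control array 2 it was -0.31, and without TCE array 2 the replication median was -0.093. The brighter genes left by a 60th percentile filter had a median of -0.16. The only mitosis genes among them were Kif11, at 0.47, and Ccnb2, at -0.79, whose median was also -0.16. limma called 0 of the 30 genes and 0% of all genes after adjustment. A single fit over all 12 arrays called 1, Hmmr. At an unadjusted p under 0.05, 7 genes were lower (23.3% of the 30, against 7.26% of all genes tested) and 1 was higher (3.33%, against 7.57%). TCE and control arrays did not overlap in 9 genes lower in TCE kidney (30%, against 9.8% of all genes) and 1 higher (3.33%, against 10.3%). Hmmr and Kif20a had TCE kidney means under the filter and were tested through control kidney. As in liver, the counts describe the tested genes and are no support for a change of the list.

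Hmmr, a protein of spindle microtubules, had the smallest p of the cell cycle genes in kidney. It gave 2.23, 2.17 and 2.27 in TCE kidney, against 3.01, 3.27 and 3.16 in control kidney. All TCE arrays were near the lowest value, so the difference of -0.93 ± 0.085 (adjusted p = 0.188) is a distance to the floor of the table. The second Hmmr probe set was near the lowest value on all 12 arrays. Mki67 gave 4.38, 4.38 and 4.88 in TCE kidney, against 5.30, 6.0 and 6.31 in control kidney. Every TCE array lay below every control array, and the difference was -1.32 ± 0.30, with control kidney 2.5-fold above TCE kidney (adjusted p = 0.227). Prc1, which bundles microtubules between the separating chromosomes, gave 2.37, 2.43 and 2.79 in TCE kidney, against 3.01, 4.47 and 3.59 in control kidney. Control array 2 was highest, and the difference was -1.16 ± 0.38 (adjusted p = 0.287). TCE arrays 1 and 2 of Prc1 were near the lowest value, so that difference is partly a distance to the floor.

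Top2a, the target of the drug etoposide, gave 2.51, 2.51 and 2.58 in TCE kidney, against 2.73, 3.40 and 4.01 in control kidney. All TCE arrays were near the lowest value and control array 1 was only slightly above them (difference -0.85 ± 0.32, adjusted p = 0.32). The second Top2a probe set differed by -0.97 in the same direction. Racgap1, needed for the cleavage furrow, gave 3.19, 2.71 and 4.66 in TCE kidney, against 4.48, 4.99 and 5.11 in control kidney. TCE array 3 overlapped control array 1, and the SD among TCE arrays was 1.01. The difference was -1.34 ± 0.53 (adjusted p = 0.331), whereas a second, dimmer Racgap1 probe set differed by -0.004.

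The kinase and its cyclins overlapped between the kidney groups. Cdk1 gave 4.55, 4.66 and 5.59 in TCE kidney, against 4.85, 6.16 and 6.28 in control kidney. Ccnb2 gave 5.34, 6.06 and 6.11 in TCE kidney, against 6.10, 6.75 and 7.03 in control kidney. In both genes control array 1 lay inside the TCE range or at its edge, while control arrays 2 and 3 were above every TCE array. Ccna2 gave 4.02, 3.89 and 4.30 in TCE kidney, against 3.85, 4.83 and 5.25 in control kidney, with control array 1 the lowest of the 6. The differences were -0.83 ± 0.48, -0.79 ± 0.32 and -0.57 ± 0.37 for Cdk1, Ccnb2 and Ccna2 (adjusted p = 0.463, 0.342 and 0.5). Ccnb1 gave 3.64, 3.64 and 3.65 in TCE kidney, against 3.64, 3.81 and 3.64 in control kidney, nearly all at one repeated value, and its second probe set differed by -0.34.

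Aurka and Ube2c were separated by small gaps. Aurka gave 3.81, 3.71 and 3.81 in TCE kidney, against 3.85, 3.88 and 4.31 in control kidney. Ube2c gave 2.33, 2.50 and 2.51 in TCE kidney, against 2.53, 3.58 and 2.52 in control kidney. For both, a single control array was well above the rest, and the other values of Ube2c were all near the lowest; the differences were -0.24 ± 0.14 and -0.43 ± 0.31 (adjusted p = 0.462 and 0.536). Bub1 gave 2.41, 2.41 and 2.74 in TCE kidney, against 2.41, 3.18 and 2.50 in control kidney, with overlap. Nusap1 gave 3.58, 3.75 and 4.03 in TCE kidney, against 3.65, 5.29 and 4.21 in control kidney, with control array 1 inside the TCE range. Cdc20, the activator of the anaphase ligase, averaged 2.65 ± 0.13 in TCE kidney and 3.56 ± 0.82 in control kidney. TCE arrays 1 and 3 of Cdc20 were near the lowest value. Birc5 averaged 2.70 ± 0.21 and 3.06 ± 0.24, and Aurkb 2.97 ± 0.085 and 3.13 ± 0.30, in the same order of groups. Kif20a, a motor of cell division, averaged 2.43 ± 0.36 in TCE kidney and 2.72 ± 0.60 in control kidney.

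Kif11 and Cdca3 were the 2 mitosis genes that did not share this direction. Kif11, the motor that pushes spindle poles apart, gave 8.18, 8.44 and 8.31 in TCE kidney, against 7.47, 8.34 and 7.72 in control kidney. The arrays overlap, the difference was 0.47 ± 0.23 (adjusted p = 0.41), and a second Kif11 probe set differed by 1.12. Cdca3 averaged 2.61 ± 0.27 in TCE kidney and 2.58 ± 0.19 in control kidney.

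Of the replication genes in kidney, 3 helicase genes and Pcna separated the groups, Pcna in the other direction. Mcm6 gave 4.94, 5.32 and 5.69 in TCE kidney, against 6.08, 5.98 and 6.41 in control kidney. Mcm7 gave 8.70, 8.70 and 8.78 in TCE kidney, against 8.94, 9.01 and 8.85 in control kidney. Mcm5 gave 5.28, 5.51 and 5.51 in TCE kidney, against 6.01, 5.58 and 5.52 in control kidney. In these 3 helicase genes every TCE array was below every control array, by differences of -0.84 ± 0.22, -0.21 ± 0.067 and -0.27 ± 0.15 for Mcm6, Mcm7 and Mcm5 (adjusted p = 0.254, 0.284 and 0.455). Mcm2 gave 7.08, 6.78 and 7.20 in TCE kidney, against 7.13, 7.24 and 7.32 in control kidney. Mcm4 gave 6.61, 6.53 and 6.73 in TCE kidney, against 6.75, 6.95 and 6.57 in control kidney. Both overlap between groups. Pcna gave 10.56, 10.41 and 10.65 in TCE kidney, against 10.26, 10.30 and 10.25 in control kidney, with all TCE arrays above the controls (difference 0.27 ± 0.077, adjusted p = 0.264). Rrm1 averaged 8.51 ± 0.24 in TCE kidney and 8.68 ± 0.10 in control kidney, Tk1 5.67 ± 0.23 and 6.13 ± 0.33, and Tyms 4.44 ± 0.20 and 4.45 ± 0.18, in the same order of groups.

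Of the regulators, Ccnd1 gave 11.64, 11.80 and 12.04 in TCE kidney, against 12.0, 11.90 and 11.98 in control kidney, a difference of -0.13 ± 0.11 (adjusted p = 0.606). E2f1 averaged 3.15 ± 0.23 in TCE kidney and 3.39 ± 0.20 in control kidney. Ccne1, Foxm1 and the helicase cofactor Gins1 were near the lowest value on all kidney arrays.

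Control kidney array 1 stood apart from the other control kidney arrays in the mitosis genes. Over the 15 mitosis genes that passed the filter in the fit over both tissues, the median deviation from the control kidney mean was -0.80, -0.63 and -0.34 on the TCE kidney arrays, against -0.53, 0.19 and 0.30 on the control kidney arrays. Control array 1 thus lay inside the TCE range, although its array median of 3.95 was like the others. Without it the median difference of the 19 tested mitosis genes was -0.96, and without control array 2 it was -0.31. The same median deviations for the 9 replication genes were -0.15, -0.24 and -0.15 on TCE kidney arrays, against -0.014, 0.013 and -0.017 on control kidney arrays. In liver the deviations of the mitosis genes were 0.32, 0.42 and 0.14 on TCE arrays, against 0, 0.034 and 0 on control arrays.

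The Gapdh gap was 0.65 ± 0.19 in TCE kidney and 0.97 ± 0.11 in control kidney (SD over 3 arrays; two-sided exact permutation test, p = 0.2). The same gap for Actb was 4.31 ± 0.093 in TCE kidney and 4.48 ± 0.08 in control kidney, with every TCE array below every control array (p = 0.1 by the same exact test, the smallest possible), and 5.33 ± 0.31 in TCE liver and 4.64 ± 0.52 in control liver, with overlap (exact permutation p = 0.3). The median difference of the 30 kidney genes, fitted with the Gapdh gap as covariate, was -0.45. Podocyte markers (4 of 5 measured) summed to 2003 to 2595 in TCE kidney and 1506 to 1728 in control kidney, and macrophage markers (7 of 9, Cd163 near the lowest) to 441.2 to 505.5 in TCE kidney and 335.4 to 403.6 in control kidney. T and NK cell markers were at 37.51 to 41.77 in TCE kidney and 41.6 to 41.71 in control kidney, with 5 of 6 near the lowest. Hepatocyte markers (7 of 7 measured, Apoa1 and Tat near the lowest) summed to 5852 to 8449 in TCE kidney and 2989 to 12180 in control kidney. The median difference of the 5 tested was -1.50, with Alb at -2.96 and Cyp2e1 at 0.82. Only 1 of the 5, Cyp2e1, separated the groups without overlap. What part these cells or liver transcripts have in the kidney values was not tested.

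**Figure D3:**
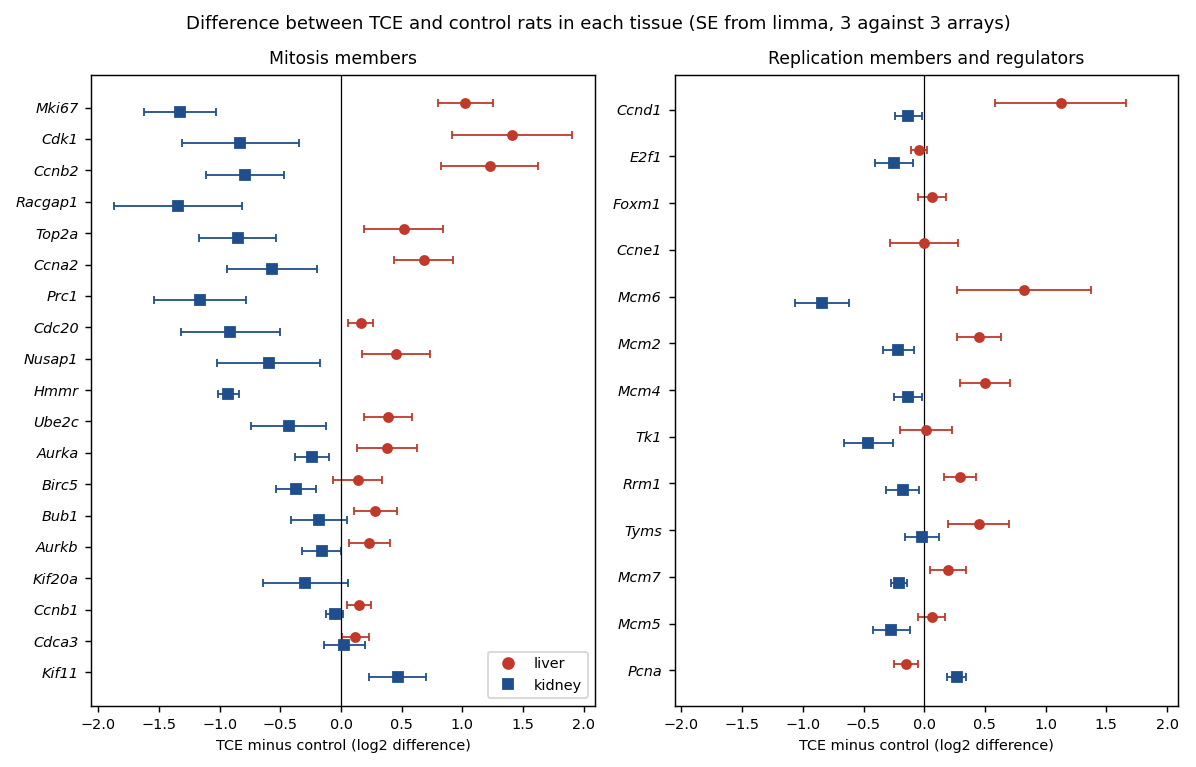
Difference between TCE and control rats (horizontal axis, log2 units, TCE minus control) with limma's SE in liver (red circles) and kidney (blue squares), for mitosis genes on the left and for regulators and replication genes on the right; a gene is drawn in a tissue only where it was tested there. Liver points lie mostly right of 0 and kidney points mostly left of it, with Pcna, lowest on the right, and the kidney value of Kif11 on the other side.

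The opposite directions in the tissues were compared by testing the difference of the 2 TCE effects, liver minus kidney, over all 12 arrays. Mki67 was the 1 gene of 26 tested that passed (3.85%, against 0.535% of all genes called in either direction and 0.188% called higher). Its effect differed by 2.35 ± 0.39, with 1.02 in liver and -1.32 in kidney (adjusted p = 0.0364). This call was lost on leaving out a single array in 9 of 12 cases, and held without kidney TCE array 2 or 3 or without liver TCE array 3 (adjusted p 0.0227 to 0.0971 over the 12). With no filter on dim genes the adjusted p was 0.0596, and with the Gapdh gap as covariate 0.938. The difference itself was 1.81 to 2.43 in these and the other alternatives that kept all 12 arrays. Treating arrays of equal replicate number as pairs also ended the call, though the numbers are not shown to pair rats. At an unadjusted p under 0.05, 13 genes had a higher effect in liver (50% of the 26, against 9.99% of all genes) and 1 a lower one (3.85%, against 7.49%). Of 25 genes tested in both tissues, 22 (88%) had a higher mean in TCE liver and a lower mean in TCE kidney than in their controls, as had 30.2% of 10175 genes overall. That count is a description and supports nothing about the list, since dim genes were tested only through their brighter group. In liver, control means lay under the filter for Top2a, Ube2c, Bub1 and Cdc20. The shares were 13 of 14 for mitosis genes and 8 of 9 for replication genes.

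Beyond Mki67, the mitosis genes with the largest differences of effect were Cdk1 at 2.24 ± 0.72, Ccnb2 at 2.01 ± 0.53, Racgap1 at 1.45 ± 0.55, Top2a at 1.37 ± 0.47 and Ccna2 at 1.25 ± 0.46. Their adjusted p were 0.167, 0.114, 0.229, 0.189 and 0.212, all short of the threshold. Racgap1 and Prc1 were near the lowest value in liver, so their differences (Prc1 1.17 ± 0.40) rest on the kidney arrays. For Mcm6 the difference was 1.66 ± 0.62, for Mcm2 0.66 ± 0.23 and for Mcm4 0.64 ± 0.25 (adjusted p = 0.215, 0.191 and 0.232). Pcna was the 1 gene at an unadjusted p under 0.05 whose effect was lower in liver, at -0.41 ± 0.13 (adjusted p = 0.171). The median difference of effects was 1.08 over 15 mitosis genes and 0.47 over 9 replication genes, against 0.043 over all 10646 genes tested. Over all genes measured the medians were 0.71 for 22 mitosis genes and 0.46 for 11 replication genes, against 0 for all 14217. The value 1.08 is that of Cdc20, which was near the lowest on all liver arrays. Its other probe sets were near the lowest on all 12 arrays. These medians describe the genes and support nothing about the list.

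The tissues also differed from each other. In control rats, liver minus kidney, 17 of the 27 genes tested were lower in liver and 1 was higher, against 38.9% and 29.7% of all genes tested. The 17 were 11 of 16 mitosis genes, 5 of 9 replication genes and Ccnd1. Among the 11, Hmmr, Prc1, Racgap1, Kif11, Top2a and Cdc20 were near the lowest value on all control liver arrays. Their control liver means lay under the filter of 2.55, so they were tested through kidney alone. These counts describe the tested genes and support nothing about the list. Kif11 differed most: it gave 2.45, 2.28 and 2.45 in control liver, against 7.47, 8.34 and 7.72 in control kidney, a difference of -5.45 ± 0.23 (adjusted p = 6.84e-06), and its second probe set differed by -1.86. All liver arrays of Kif11 were near the lowest value, which makes that a distance to the floor. Ccnd1 differed by -2.81 ± 0.44 (adjusted p = 0.00196), and its 2 other probe sets gave -2.83 and -2.82.

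Mitosis genes lower in control liver included Cdk1 at -2.99 ± 0.53, Racgap1 at -2.61 ± 0.17, Mki67 at -2.43 ± 0.26 and Ccnb2 at -2.04 ± 0.31 (adjusted p = 0.00346, 4.45e-05, 0.000389 and 0.00165). The arrays of these genes did not overlap between the tissues. All control liver arrays of Racgap1 and 2 of those of Cdk1 were near the lowest value, so these are distances to the floor too, and the second Racgap1 probe set differed by -0.0034. Ccna2 at -1.54 ± 0.39 and Nusap1 at -1.46 ± 0.42 passed at adjusted p of 0.0148 and 0.0218. The call for Ccna2 was lost on leaving out control kidney array 2 (adjusted p = 0.0534) and the call for Nusap1 on leaving out liver array 1, liver array 2 or kidney array 3 (0.0661, 0.0636 and 0.0512). Alternative processing also ended each call, at adjusted p of up to 0.107 for Ccna2 and 0.0602 for Nusap1. Nusap1's second probe set differed by -0.27.

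Replication genes divided. Mcm2 was lower in control liver by a difference of -1.81 ± 0.18, Mcm6 by -2.48 ± 0.50, Rrm1 by -1.25 ± 0.11 and Pcna by -0.75 ± 0.08 (adjusted p = 0.000259, 0.0056, 0.000128 and 0.000363). The call for Mcm6 was lost with the Gapdh gap as covariate (adjusted p = 0.0959). Mcm4 did not pass, at -0.032 ± 0.21 (adjusted p = 0.907), and it was above 0 after quantile normalization and after centring each array. Tk1 was the 1 gene higher in control liver. It gave 6.99, 6.85 and 6.55 in control liver, against 6.03, 5.85 and 6.50 in control kidney, a difference of 0.67 ± 0.20 (adjusted p = 0.0282). Leaving out control kidney array 1 or 2 or control liver array 1 or 2 ended that call (adjusted p = 0.0796 to 0.0882), as did no filter on dim genes, averaged probe sets (difference 0.28, adjusted p = 0.151) and the Gapdh gap as covariate. The 2 other Tk1 probe sets gave 0.54 and -0.36.

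In TCE rats the same comparison of tissues called fewer of these genes. Of 27 tested, 6 were lower in liver and 2 higher, against 36.8% and 30.9% of all genes tested. Kif11, again tested through kidney alone, was the 1 mitosis gene among those called. Mki67 averaged 4.46 ± 0.43 in TCE liver and 4.55 ± 0.29 in TCE kidney, a difference of -0.084 ± 0.26 (adjusted p = 0.788), against -2.43 ± 0.26 in control rats. Ccnb2 averaged 5.81 ± 0.69 in TCE liver and 5.84 ± 0.43 in TCE kidney, a difference of -0.024 ± 0.39 (adjusted p = 0.964), against -2.04 ± 0.31 in control rats. Whether the tissue difference itself changed with TCE is the same contrast as the difference of TCE effects above, and Mki67 was the gene that passed it. The genes that passed in both kinds of rat with the same sign were Ccnd1, Kif11, Mcm2, Mcm5, Pcna, Rrm1 and Tk1, 7 of 18 called in control rats and 7 of 8 called in TCE rats. The call for Mcm5 in TCE rats was lost without kidney TCE array 2 or 3 or liver TCE array 3 (adjusted p 0.0197 to 0.0687 over the 6 arrays left out in turn), and after quantile normalization, centring, robust trended variances or the Gapdh gap as covariate (adjusted p up to 0.903). Mcm4 was called in TCE rats, at 0.61 ± 0.10 higher in liver (adjusted p = 0.00253). Tk1 gave 6.93, 7.09 and 6.42 in TCE liver, against 5.69, 5.89 and 5.43 in TCE kidney (difference 1.14 ± 0.21, adjusted p = 0.00388). With the Gapdh gap as covariate the calls in TCE rats were also lost for Tk1, at 0.16 (adjusted p = 0.731), for Mcm2 (0.104) and for Rrm1 (0.152), and centring ended the call for Rrm1 too.

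Scaling matters for these tissue comparisons. Centring each array on its own median moved the median of all genes by 0.41 in control rats and 0.38 in TCE rats, since the kidney array medians are higher. After centring, 2 genes were higher and 12 lower in control liver. In TCE rats 11 were higher and 4 lower after centring, among them 7 mitosis genes called higher in liver, against none as deposited. The differences of Mki67 and Ccnb2 between TCE liver and TCE kidney were above 0 after either rescaling, without passing the test. Quantile normalization gave 2 higher and 16 lower in control rats and 5 and 5 in TCE rats. The share of higher calls among all genes called was 43.3% as deposited, 65% centred and 51% after quantile normalization in control rats, and 45.6%, 65.7% and 52.5% in TCE rats.

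**Figure D4:**
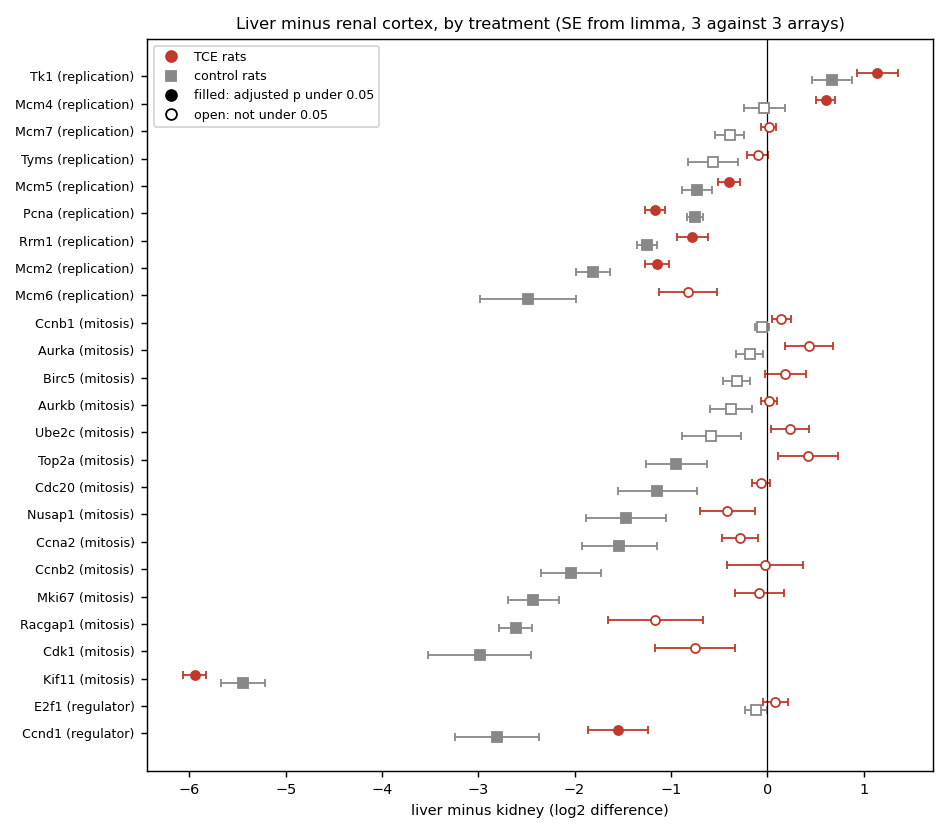
Liver minus kidney (horizontal axis, log2 difference with limma's SE) for each of 25 genes tested in both kinds of rat, TCE rats as red circles and control rats as grey squares, filled where the adjusted p was under 0.05. Many mitosis genes sit well left of 0 in control rats and near 0 in TCE rats, and Kif11 is far left in both.

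A wider list of 146 genes of the same pathways (129 measured) was counted besides. In liver 93 were tested and limma called 0 of them. At an unadjusted p under 0.05, 8 were higher in TCE liver (8.6%, against 8.82% of all genes) and 4 lower (4.3%, against 5.84%), so their share was near that of all genes. The median difference was 0.090. Mybl1, a Myb transcription factor, averaged 5.78 ± 0.64 in TCE liver and 3.51 ± 0.80 in control liver (difference 2.26 ± 0.51, adjusted p = 0.192). A single fit over all 12 arrays brought Mybl1 past the threshold (adjusted p = 0.029). Cyclin D2 (Ccnd2) averaged 7.66 ± 0.11 in TCE liver and 6.98 ± 0.27 in control liver, at 0.68 ± 0.15 and adjusted p = 0.192. Ect2, the exchange factor that directs cleavage, averaged 4.78 ± 0.61 in TCE liver and 3.47 ± 0.14 in control liver, and Tacc3, a spindle protein, 5.53 ± 0.32 and 4.90 ± 0.061 in the same order (adjusted p = 0.212 and 0.239). Cdk4, the partner of D cyclins, and E2f6, a repressor, had differences of -0.35 ± 0.10 and -0.50 ± 0.17 (adjusted p = 0.265 and 0.286).

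In kidney 92 genes of the wider list were tested and limma called 0. At an unadjusted p under 0.05, 6 were higher in TCE kidney (6.52%, against 7.57% of all genes) and 5 lower (5.43%, against 7.26%), with a median difference of -0.042. The inhibitors of D cyclin kinases Cdkn2d and Cdkn2c had the values -0.74 ± 0.15 and -0.40 ± 0.12 without passing (adjusted p = 0.217 and 0.267). The values were 0.23 ± 0.058 for E2f5, 0.39 ± 0.10 for the single strand binding subunit Rpa3, 0.36 ± 0.11 for Ccng2 and 0.23 ± 0.074 for Lin54, which in human cells binds the CHR (adjusted p = 0.254, 0.254, 0.27 and 0.275). The kinase inhibitor Cdkn1a, a p53 target, averaged 8.90 ± 0.36 in TCE liver and 9.62 ± 0.74 in control liver, and 4.70 ± 0.71 in TCE kidney and 5.17 ± 0.92 in control kidney (adjusted p = 0.462 in liver and 0.716 in kidney). Cdkn1b, another inhibitor, differed by -0.008 ± 0.14 in liver and -0.022 ± 0.10 in kidney. Wee1, which holds Cdk1 inactive, differed by 0.88 ± 0.43 in liver and 0.19 ± 0.08 in kidney (adjusted p = 0.411 and 0.35).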

How the data were processed

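RNA of liver and renal cortex was hybridised to Affymetrix Rat Genome arrays, and the authors deposited 1 table of log2 values, 31099 probe sets by 12 arrays. Per the submitters' processing notes the authors worked with affy and limma. No version, background correction or normalization method is given in the sources used here. Deposited values range over 2.17 to 16.5, from which the log2 scale was taken. No column was left out.

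Of the probe sets, 20826 had 1 symbol, 436 several and 9780 none in GEO's platform annotation, and 57 control probe sets were left out. Tested genes had a mean, in the arrays being compared, above the 40th percentile of the probe set means (2.45 in liver, 2.43 in kidney, 2.55 over both tissues for the difference of effects, 2.55 for control tissues and 2.54 for TCE tissues). Two-sided tests were run in limma 3.58.1 under R 4.3.3 (lmFit, eBayes). The p-values were adjusted after Benjamini-Hochberg across every gene tested, at a threshold of 0.05. Single values per array were compared by exact permutation. The scripts were tested on simulated data. Equal replicate numbers were checked as pairs: correlations of deviations lay between -0.09 and 0.077, none over 0.1, and the numbers were not used as pairs in the reported fits. Own-number correlations were nevertheless best in every control pair between tissues, so this check does not settle whether equal numbers mark 1 rat.

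Genes with values on every array were those listed by name, those whose groups did not overlap and those with the largest tissue differences. Wider-list genes were named by smallest p, plus Cdkn1a, Cdkn1b and Wee1. The members and lists were chosen with earlier results of these data known. Alternatives were other filters, averaged probe sets, renormalization, other variance models, a replicate block, the Gapdh gap, a joint fit and leaving out each array. The 3 arrays of a group come from separate rats per the labels, and fits over both tissues treat their arrays as independent.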

Additional observations from a re-analysis of the deposited data

Results flagged for a closer look

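The TCE effect on Mki67 differed between the tissues, by 2.35 on the log2 scale, liver minus kidney, with 1.02 in liver and -1.32 in kidney (limma, adjusted p = 0.0364). In both tissues TCE and control arrays did not overlap, in opposite directions. The call was lost in 9 of 12 fits that left out an array and with no filter (adjusted p = 0.0596). It was also lost with the replicate block and with the Gapdh gap as covariate (0.938). The difference itself was 1.81 to 2.43 over the alternatives other than leaving out an array, the Gapdh gap included. With the Gapdh gap, a separate fit to the liver arrays gave a liver difference of -0.051.

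The TCE effect on Aurka went the opposite way in the tissues on every array, with 0.38 in liver and -0.24 in kidney. The difference of 0.62 had an adjusted p of 0.318, so it did not pass the test.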

How the results depend on the processing

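No member passed the threshold in liver under any alternative, and in kidney 1 (Hmmr, adjusted p = 0.00223) with all 12 arrays in 1 fit. The cause of each change below was not tested, except that stricter and absent filters change which genes are tested. Liver median difference, 0.29 as reported: 0.15 with no filter, -0.048 with the Gapdh gap as covariate, 0.19 to 0.40 leaving out an array. Kidney median, -0.28 as reported: -0.45 with the Gapdh gap and -0.16 at the 60th percentile filter. There the mitosis median, over Kif11 and Ccnb2 alone, was -0.16 against -0.57. Difference of effects, 1 gene as reported: 0 at the 60th percentile filter, where Mki67 was not tested, 0 with the replicate block, 0 with the Gapdh gap and 0 to 2 leaving out an array; with no filter the adjusted p of Mki67 was 0.0596. Leaving out kidney TCE array 3 added Racgap1, and leaving out control kidney array 1 called Cdc20 and not Mki67. The call for Mki67 held without kidney TCE array 2, kidney TCE array 3 or liver TCE array 3. The median difference of effects, 0.65 as reported, was 0.47 with no filter and 0.47 at the 60th percentile.

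Control tissues, median -0.98 and 18 genes as reported: the median was -0.57 with no filter, -0.75 at the 60th percentile (6 of 7 genes called), -0.87 with averaged probe sets, -0.57 centred, -1.20 with the Gapdh gap and -1.20 to -0.87 leaving out an array. TCE tissues, median -0.067 and 8 genes as reported: the median was -0.40 at the 60th percentile, 0.13 after quantile normalization, 0.32 centred and -0.29 with the Gapdh gap, and 15 genes were called when centred and 4 with the Gapdh gap.

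These single values changed sign, none past the threshold unless named as called in the text. With the Gapdh gap, liver differences were -0.051 for Mki67, -0.31 for Bub1, -0.27 for Ccnb2, -0.12 for Ccna2, -0.99 for Top2a, -0.59 for Ccnd1, 0.19 for Pcna, -0.13 for Rrm1, -0.23 for Ect2, -0.052 for Tacc3 and 0.061 for Cdkn1a, and the difference of effects for Pcna was 0.10. Cdkn1b was 0.023 in liver after quantile normalization and -0.14 to 0.066 leaving out an array, and in kidney 0.0058 with averaged probe sets and -0.11 to 0.065. In control tissues Mcm4 was 0.25 after quantile normalization, 0.38 centred and -0.15 to 0.19 leaving out an array. In TCE tissues Mcm5 was 0.058 after quantile normalization; Mki67 was 0.40 then, 0.30 centred and -0.23 to 0.16 leaving out an array; Ccnb2 was 0.35, 0.36 and -0.30 to 0.36.

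The replicate block, over numbers not shown to pair rats, left the counts in liver, kidney and both tissue comparisons within 1.5 times and gave Mki67 an adjusted p of 0.172 in the difference of effects, and Tk1 in control tissues 0.074, both short of the threshold, while Mcm6 passed in TCE tissues (0.0105 against 0.0536); own-number correlations were best in all 3 control pairs between tissues. Genes near the lowest value have no measurable order, which limits the dim mitosis genes most.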
